A study of Mus musculus with 18 samples.

Results

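The Myc, Max and Mxd network is the set of basic helix-loop-helix leucine zipper proteins built around Max. It was taken here as 10 genes (Myc, Mycn, Mycl, Max, Mxd1, Mxd3, Mxd4, Mxi1, Mnt and Mlx), and every probe set annotated with 1 of these symbols and no other was used. All 10 were measured, by 24 of the 34945 probe sets that carry a single gene symbol, and they make up 10 of the 18193 genes so named. Where a gene had several probe sets, the brightest on average stands for it, and the others are described beside it.

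Total RNA of small-intestinal crypts from 2-month-old mice was hybridised to 18 arrays. Mice lacking E2f1, E2f2, E2f3 and Myc (E2f/Myc QKO, called QKO below) gave 5 arrays, mice lacking Myc (Myc KO) 4, mice lacking E2f1, E2f2 and E2f3 (E2f TKO) 5, and control mice 4. Per the labels, Ah-cre, a Cre recombinase inducible in the intestine, removed the alleles, and crypts were collected after 2 days; its promoter is that of Cyp1a1, an aryl hydrocarbon receptor target. The labels do not give the strain, the sex, the form of each allele, or whether control mice carried Ah-cre, and nothing in them says whether each array is a separate mouse, so p-values measure the spread between these samples.

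Myc proteins bind DNA as heterodimers with Max, at E-boxes such as CACGTG, and raise transcription of genes for ribosome production, nucleotide synthesis and growth. Mxd1, Mxi1, Mxd3, Mxd4 and Mnt compete for Max and recruit Sin3 and histone deacetylases, which lower transcription from the same sites. Mlx is a Max-like protein that pairs with Mnt, with some Mxd proteins and with the glucose-responsive Mondo factors. In the intestine, Myc is a Wnt target of the dividing crypt cells, and Mxd1 rises as cells stop dividing and mature towards the villus.

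The promoter sequences below are shown because the deleted factors belong to families that read such words: E2F proteins bind GC-rich sites with a run of T, and Myc-Max, Mxd-Max and Mlx dimers bind CACGTG. They come from RefSeq on GRCm38.p6, run from 250 bases before to 50 bases after a transcript's start, and cover 9 of the 10 members in 11 windows. No window was available for Myc, which was therefore not searched. The words searched on both strands were, for E2F, the word TTCCCGC, the word TTCGCGC, the word TTGCCGC and the word TTGGCGC, and for the E-box CACGTG; they were chosen after the sequences and the values had been seen. At least 1 of the E2F words occurred in windows of 3 members, Mycn, Mxd3 and Mxi1, and in 9.57% of all windows of this length (10.9% of genes). CACGTG occurred in 4 members, Max, Mxd4, Mnt and Mlx, and in 7.15% of all windows (8.09% of genes). The first line is the minus strand at chr13:55329682-55329981, the second the minus strand at chr12:12941787-12942086, and capitals mark the E2F words on either strand.

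Mxd3: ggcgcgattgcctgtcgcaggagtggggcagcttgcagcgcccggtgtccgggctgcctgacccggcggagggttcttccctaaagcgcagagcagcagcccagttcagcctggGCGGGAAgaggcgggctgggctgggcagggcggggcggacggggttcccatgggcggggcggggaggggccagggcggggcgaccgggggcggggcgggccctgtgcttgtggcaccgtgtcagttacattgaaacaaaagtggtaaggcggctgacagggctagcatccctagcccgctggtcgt
Mycn: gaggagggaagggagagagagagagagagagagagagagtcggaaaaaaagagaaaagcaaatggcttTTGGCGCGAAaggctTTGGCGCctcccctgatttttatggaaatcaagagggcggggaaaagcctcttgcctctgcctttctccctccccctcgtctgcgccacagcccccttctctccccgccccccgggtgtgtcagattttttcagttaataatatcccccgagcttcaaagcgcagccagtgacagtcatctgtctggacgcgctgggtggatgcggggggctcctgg

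In Mxi1, whose sequence is not printed, 1 of 3 windows holds the word TTGCCGC, which begins 10 bases after the start. In Mxd3 the word begins 136 bases before the start. In Mycn there are 3 matches, which begin 182, 179 and 167 bases before it, and the first pair overlap on opposite strands, so that they print as 1 run of capitals. The E-boxes of the other members are shown with 12 bases on either side and with CACGTG in capitals. That of Max (chr12:76962234-76962263, minus strand) begins 3 bases before the start and runs across it. The E-boxes of Mxd4 (chr5:34187912-34187941, minus strand), Mnt (chr11:74830789-74830818, plus strand) and Mlx (chr11:101087238-101087267, plus strand) begin 219, 123 and 40 bases before the start. A match is a description of the letters and not a bound site.

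Max: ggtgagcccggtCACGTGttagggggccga
Mxd4: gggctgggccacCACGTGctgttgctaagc
Mnt: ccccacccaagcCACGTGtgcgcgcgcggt
Mlx: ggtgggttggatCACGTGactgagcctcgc

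Array medians ran from 6.14 to 6.26 on the log2 scale, and the Myc KO and QKO arrays (6.22 to 6.26) lay above the E2f TKO and control arrays (6.14 to 6.19). Crypt markers were strong in every array, with Olfm4 (stem cells) between 12.49 and 13.43 and Lyz1 (Paneth cells) between 14.42 and 14.70. Pecam1 (endothelium) and Myh11 (smooth muscle) did not exceed 5.18. The arrays labelled E2f TKO 2 and 5 stood apart from their group: Cyp1a1 read 5.05 and 4.91 there, against 12.66 to 14.09 in the other 16 arrays, and E2f3 read 9.35 and 9.10, against 8.08 to 8.39 in the other E2f TKO arrays and 8.62 to 8.96 in control arrays. For several results that involve E2f TKO, values are therefore given with and without them, and these arrays are drawn with open symbols. Xist, transcribed from the inactive X chromosome, read 12.02 to 13.40 in QKO 4 and 5, E2f TKO 1 and 4 and control 3, and 6.44 to 6.96 in the other 13 arrays, all Myc KO arrays among them. With Xist as a covariate, the number of members called was the same in all 6 comparisons.

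Across the 10 members, the targeted gene itself gave the largest changes and most other members gave small ones. In QKO crypts 2 members passed the limma test against control, Myc and Mxd3, both lower, where 26.9% of all genes did so (14.3% higher and 12.6% lower). In Myc KO crypts Myc was the only member called, at a background of 8.31% (4.72% lower). In E2f TKO crypts limma called 0 of 10, at a background of 2.90%; 1 member, Myc, had an unadjusted p under 0.05, and testing every probe set called Mxd3. The median member differed from control by -0.25 in QKO, -0.06 in Myc KO and 0.04 in E2f TKO crypts, and the median of all genes by 0.03, 0.02 and -0.00. Groups of arrays that did not overlap with control were found for 3 members in QKO, 1 in Myc KO and 0 in E2f TKO, against 26.2%, 22.4% and 5.43% of all genes. These counts include Myc, whose fall in QKO and Myc KO was fixed by the deletion. Apart from Myc, only Mxd3 was called in QKO, and no member was called or free of overlap in Myc KO. With Myc counted, the shares of members did not stand far from the background, so that the network is described here by its individual genes.

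**Figure D1:**
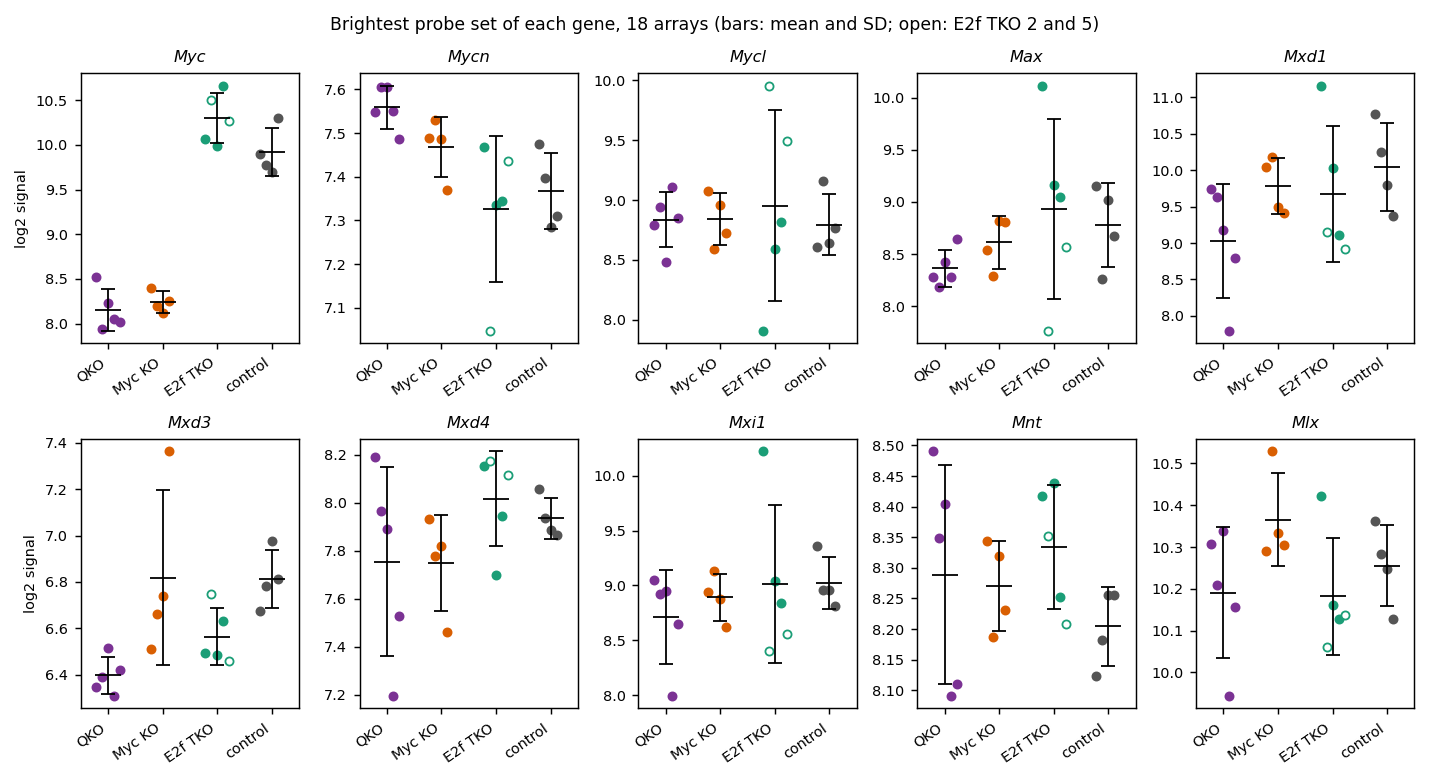
Log2 signal of the brightest probe set of each of the 10 members in the 18 arrays, by group (QKO, Myc KO, E2f TKO, control), with bars for the mean and SD and open symbols for the arrays labelled E2f TKO 2 and 5. Myc lies between 7.94 and 8.52 in QKO and between 8.11 and 8.40 in Myc KO arrays, below all E2f TKO and control arrays, and the E2f TKO group is the most spread for Max, Mycl and Mxi1.

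Myc encodes the family member that drives growth of crypt progenitors, and its single probe set, 1424942_a_at, checks the labels. The position of its probes relative to the deleted part of Myc could not be checked. The signal left after deletion can therefore not be assigned to intact transcript or to background. Its log2 signal was 8.52, 7.94, 8.24, 8.05 and 8.02 in the QKO arrays, and 8.40, 8.19, 8.11 and 8.25 in the Myc KO arrays. It was 10.07, 10.50, 9.99, 10.66 and 10.27 in the E2f TKO arrays, and 9.90, 9.77, 9.69 and 10.30 in the control arrays. Every array with a Myc deletion was thus more than 1 log2 unit below every array without one, and the QKO and Myc KO arrays overlapped. Myc fell to 0.294 of control in QKO (log2 difference -1.76 ± 0.15, SE; limma adjusted p = 9.19e-07) and to 0.313 of control in Myc KO (-1.68 ± 0.16, adjusted p = 3.12e-05). The difference between QKO and Myc KO was -0.09, with a 95% interval of -0.40 to 0.23. Against the arrays labelled E2f TKO, the Myc difference of QKO was -2.15 ± 0.14 (limma adjusted p = 1.57e-07), and it was -2.09 ± 0.17 with arrays 2 and 5 of that group left out.

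In E2f TKO crypts the Myc signal averaged 10.30 ± 0.28 (SD, n = 5), against 9.92 ± 0.27 in control crypts (n = 4). The difference of 0.38 (95% interval 0.07 to 0.70) had an unadjusted limma p of 0.0208 and an adjusted p of 0.237, and the 2 groups overlapped. In the order of the levels, QKO and Myc KO at the bottom did not differ beyond their spread, and E2f TKO and control at the top overlapped. The interaction, which asks whether the effects of both losses add on the log2 scale, was -0.47 for Myc, with a limma adjusted p of 0.765. Because Myc is deleted in Myc KO and QKO alike, its own value cannot answer that question. No member passed the interaction test, which called 0.0550% of all genes; 1 member, Myc, had an unadjusted p under 0.05 there.

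Mycn, the paralogue best known from embryonic and neural progenitors, binds Max in the same way as Myc. Its brightest probe set, 1425923_at, read 7.55, 7.60, 7.61, 7.55 and 7.49 in QKO and 7.49, 7.53, 7.49 and 7.37 in Myc KO crypts. The same probe set read 7.47, 7.05, 7.33, 7.35 and 7.44 in E2f TKO and 7.48, 7.40, 7.29 and 7.31 in control crypts. All QKO arrays were above all E2f TKO arrays and, by about 0.01, above all control arrays. Mycn was higher in QKO than in E2f TKO crypts by 0.23 ± 0.07 (limma adjusted p = 0.0340), and it was 1 of 2 members called in that comparison, with a background of 17.0% (7.95% lower). Members whose QKO and E2f TKO arrays did not overlap also numbered 2, Myc and Mycn, against 9.22% of all genes. The Mycn call was lost on dropping both E2f TKO 2 and E2f TKO 5 (0.18, adjusted p = 0.0892), and on leaving out any 1 of E2f TKO 2, 3 or 4 or of QKO 1, 2, 3 or 4 (adjusted p from 0.0525 to 0.0767). Against control, the QKO difference of this probe set was 0.19 with an adjusted p of 0.0719. Over genes it passed in 4 settings, without E2f TKO 2 (limma adjusted p = 0.0216), without E2f TKO 2 and 5 (0.0237), with only the groups compared (0.0421) and with array weights (0.0123).

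The other Mycn probe sets, both near or below the array medians, gave larger differences. Probe set 1417155_at read 6.23, 6.59, 6.67, 7.20 and 6.88 in QKO and 6.12, 6.32, 6.47 and 6.15 in Myc KO crypts. It read 5.66, 6.46, 6.06, 6.11 and 6.33 in E2f TKO and 5.79, 6.06, 5.83 and 5.78 in control crypts, so that every QKO and Myc KO array was above every control array. With all 34945 probe sets tested, it was higher than control by 0.85 ± 0.17 in QKO (1.80-fold, limma adjusted p = 0.00119), while the Myc KO difference of 0.40 had an adjusted p of 0.157. Probe set 1425922_a_at was higher in QKO than in control by 0.48 ± 0.13 (adjusted p = 0.00956), with overlapping arrays. Both of these calls against control held in all 25 alternative settings run at the level of probe sets. Averaged over its probe sets, Mycn was higher in QKO than in control by 0.51 (limma adjusted p = 0.000297). Against E2f TKO, the QKO differences were 0.59 (adjusted p = 0.0153) for 1417155_at and 0.39 (adjusted p = 0.0315) for 1425922_a_at. The call of 1425922_a_at against E2f TKO was lost in 7 of the 25 settings: on leaving out E2f TKO 3, E2f TKO 4, QKO 3 or QKO 4, without E2f TKO 2 and 5 together (limma adjusted p = 0.0519), with quantile normalization (0.0931) and with only the groups compared (0.112). That of 1417155_at was lost in 1, the groups compared alone (limma adjusted p = 0.0657). The mean Mycn signal in QKO therefore lay above that of control in all 3 probe sets, by 0.19 to 0.85. No Mycn probe set passed between QKO and Myc KO (limma adjusted p from 0.125 to 0.567).

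A list of 10 enteroendocrine markers also stood higher in QKO arrays, with a mean of 0.54 to 0.98 above control, against 0.19 to 0.54 in Myc KO, 0.37 to 0.59 in E2f TKO and -0.23 to 0.11 in control arrays. In each array 9 of its 10 members were above the array median, and its part in the Mycn values was not tested. The mean of 6 measured tuft cell markers was 0.32 to 0.66 in QKO, 0.15 to 0.20 in Myc KO, -0.00 to 0.28 in E2f TKO and -0.03 to 0.02 in control arrays, with 4 of the 6 above the array median in each array. The mean of 10 stem cell markers was 0.18 to 1.06 in QKO, 0.12 to 0.41 in Myc KO, -0.67 to 0.59 in E2f TKO and -0.16 to 0.08 in control arrays. All 3 lists were higher in every QKO array than in every control array, and the part of the tuft and stem lists was not tested either. In bulk crypts a change in the number of cells of a type and a change in RNA per cell cannot be told apart.

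Mycl, the third Myc paralogue, gave no call in any comparison. Its brightest probe set, 1434777_at, read 8.79, 8.94, 8.49, 9.11 and 8.85 in QKO and 9.07, 8.59, 8.96 and 8.73 in Myc KO crypts. It read 7.91, 9.96, 8.59, 8.82 and 9.49 in E2f TKO and 8.61, 9.16, 8.64 and 8.77 in control crypts. The 2 highest values of all 18 arrays were those of E2f TKO 2 and 5, and the lowest was that of E2f TKO 1. The QKO difference from control was 0.04 (95% interval -0.56 to 0.64), an interval that spans changes of about 1.5-fold either way. The dimmer Mycl probe sets also gave no call. Probe set 1422087_at read 6.92 to 7.46 in QKO, 7.04 to 7.58 in Myc KO, 6.61 to 7.83 in E2f TKO and 7.06 to 7.52 in control arrays. Probe set 1422088_at read 6.20 to 6.76 in QKO, 6.30 to 6.84 in Myc KO, 5.72 to 7.34 in E2f TKO and 6.26 to 6.89 in control arrays, so that all groups overlapped in both. Mycl lies on the chromosome of E2f2, 13.2 Mb away.

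**Figure D2:**
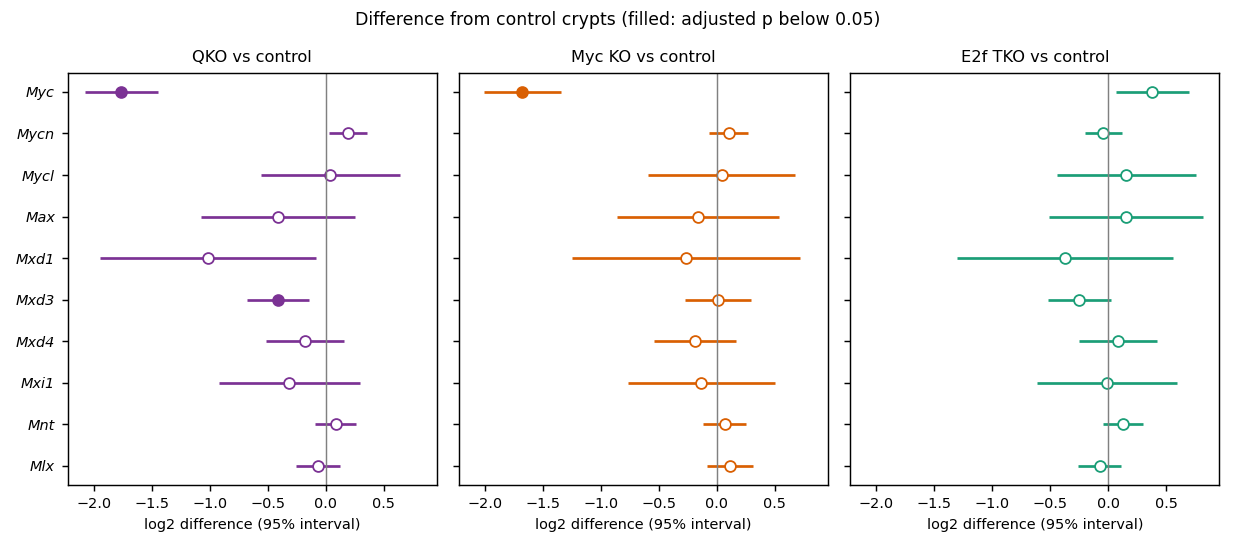
Log2 difference of each member's brightest probe set from control crypts in QKO, Myc KO and E2f TKO crypts, with 95% intervals; filled points passed the test. Myc is filled in QKO (-1.76) and Myc KO (-1.68), Mxd3 in QKO (-0.41), and the intervals of Mnt and Mlx are narrow while those of Mxd1, Max, Mxi1 and Mycl are wide.

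Max, the partner shared by Myc and the Mxd proteins, read 8.28, 8.19, 8.42, 8.28 and 8.65 in QKO and 8.54, 8.29, 8.82 and 8.81 in Myc KO crypts (probe set 1423501_at). It read 10.12, 7.77, 9.16, 9.05 and 8.57 in E2f TKO and 9.16, 8.26, 9.02 and 8.67 in control crypts. The QKO arrays were the most alike, and E2f TKO 1 and 2 held the highest and the lowest value of all arrays. No comparison of Max passed the test; QKO differed from control by -0.41 (adjusted p = 0.358) and from E2f TKO by -0.57 (adjusted p = 0.199). On dropping both E2f TKO 2 and E2f TKO 5, the difference between QKO and E2f TKO was -1.08 (adjusted p = 0.00832), and without E2f TKO 2 alone it was -0.86 (adjusted p = 0.0284). A statement on Max between these groups thus depends on whether those arrays are counted.

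Mxd3 encodes a Max partner that represses transcription and, unlike the other Mxd genes, is expressed in S phase of dividing cells. Its brightest probe set, 1438847_at, read 6.35, 6.39, 6.52, 6.31 and 6.42 in QKO and 6.51, 6.66, 6.74 and 7.37 in Myc KO crypts. It read 6.49, 6.75, 6.48, 6.63 and 6.46 in E2f TKO and 6.67, 6.78, 6.98 and 6.81 in control crypts. All QKO arrays were below all control arrays, and Mxd3 fell by 0.41 ± 0.13 in QKO (0.750 of control, limma adjusted p = 0.0224). The adjusted p was 0.0761 without control 3 and 0.0511 without control 4. In E2f TKO crypts this probe set differed by -0.25 (adjusted p = 0.412).

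The other Mxd3 probe sets separated the genotypes further. Probe set 1422970_at read 6.24, 6.21, 6.43, 6.27 and 6.18 in QKO and 6.79, 6.92, 7.10 and 6.89 in Myc KO crypts. It read 6.21, 6.47, 6.39, 6.46 and 6.28 in E2f TKO and 6.57, 6.92, 6.78 and 6.97 in control crypts. All QKO arrays and all arrays labelled E2f TKO, 2 and 5 among them, were below all Myc KO and control arrays. Probe set 1448878_at, which was under the array median in all 18 arrays, read 4.72, 4.65, 5.04, 4.94 and 4.66 in QKO and 5.59, 5.61, 5.37 and 5.67 in Myc KO crypts. It read 4.64, 4.68, 4.57, 4.55 and 4.85 in E2f TKO and 5.32, 5.44, 5.63 and 5.15 in control crypts, with the same separation.

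With all probe sets tested, 1422970_at fell by 0.55 in QKO (limma adjusted p = 0.000274) and by 0.45 in E2f TKO (adjusted p = 0.00897), and 1448878_at fell by 0.58 in QKO (adjusted p = 0.000587) and by 0.73 in E2f TKO (adjusted p = 0.000553). In Myc KO their differences from control were 0.12 and 0.18, both short of the threshold (adjusted p = 0.473 and 0.335). Between QKO and Myc KO they fell by 0.66 (adjusted p = 0.000243) and by 0.76 (adjusted p = 0.000291), and 1438847_at by a log2 difference of -0.42 that missed the threshold (adjusted p = 0.0509 over genes). Between QKO and E2f TKO no Mxd3 probe set passed; the 95% intervals were -0.42 to 0.08, -0.28 to 0.08 and -0.06 to 0.35. Among 24 member probe sets, the calls of E2f TKO against control numbered 2, those of 1422970_at and 1448878_at, at a background of 2.62% of probe sets, and those of QKO against Myc KO were the same pair at a background of 7.03%. The call of 1422970_at in E2f TKO was lost only in the fit of those groups alone (adjusted p = 0.0641), and all other calls of this pair held in all 25 settings.

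The pair of Mxd3 probe sets was also low in the arrays labelled E2f TKO 2 and 5, which read 6.47 and 6.28 for 1422970_at and 4.68 and 4.85 for 1448878_at. A list of 8 myeloid and mast cell markers also differed between the groups, at -0.53 to -0.26 relative to control in QKO, -0.05 to 1.03 in Myc KO, -1.06 to -0.08 in E2f TKO and -0.30 to 0.39 in control arrays, with 2 to 6 of its 8 members above the array median; its part was not tested. Mxd3 lies on chromosome 13, 25.3 Mb from the deleted E2f3, and the part of that linkage was not tested.

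**Figure D3:**
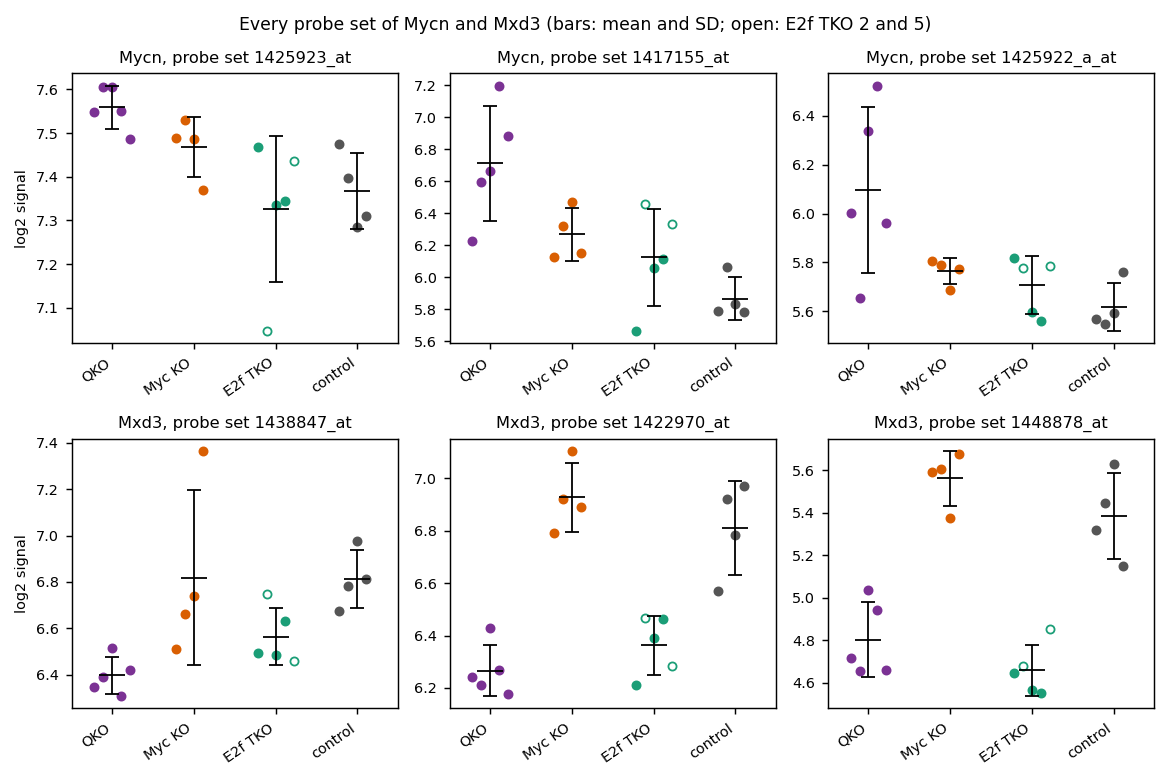
Log2 signal of the 3 Mycn and 3 Mxd3 probe sets in each array by group (QKO, Myc KO, E2f TKO, control), with bars for the mean and SD and open symbols for E2f TKO 2 and 5. The mean of Mycn is highest in QKO in all 3 of its panels, where the QKO and Myc KO arrays overlap. For Mxd3 probe sets 1422970_at and 1448878_at the QKO and E2f TKO arrays lie below all Myc KO and control arrays.

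Mxd1 encodes the repressor that accompanies the end of division in maturing epithelium. Its brightest probe set, 1434830_at, read 9.74, 9.63, 9.18, 7.79 and 8.80 in QKO and 10.04, 10.18, 9.49 and 9.41 in Myc KO crypts. It read 11.16, 9.15, 10.03, 9.11 and 8.91 in E2f TKO and 10.77, 10.26, 9.79 and 9.37 in control crypts. QKO averaged 9.03 ± 0.79 (SD, n = 5), against 10.05 ± 0.60 in control (n = 4), and the groups overlapped. The difference of -1.02 ± 0.44 had a limma adjusted p of 0.0994, with a 95% interval of -1.95 to -0.08, and it was the widest interval among members. Without E2f TKO 1, whose spread enters the shared error, the adjusted p was 0.0400. The other Mxd1 probe sets gave no call. Probe set 1455104_at averaged 7.44 ± 0.91 in QKO, 8.30 ± 0.33 in Myc KO, 8.07 ± 0.94 in E2f TKO and 8.45 ± 0.56 in control crypts (SD), with a QKO difference from control of -1.01 (limma adjusted p = 0.110). Probe set 1422002_at read 6.78 to 7.75 in QKO, 7.50 to 8.16 in Myc KO, 7.07 to 8.69 in E2f TKO and 7.32 to 8.38 in control arrays, with a difference of -0.52 (limma adjusted p = 0.187). In both the QKO arrays reached lower than those of control, and the groups overlapped.

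Mxi1, also called Mxd2, encodes a repressor of the same family. Its brightest probe set, 1425732_a_at, read 9.05, 8.92, 8.95, 7.99 and 8.65 in QKO and 8.94, 9.13, 8.87 and 8.62 in Myc KO crypts. It read 10.23, 8.40, 9.04, 8.84 and 8.56 in E2f TKO and 9.36, 8.96, 8.96 and 8.81 in control crypts. No difference passed the test, and QKO differed from control by -0.31 (95% interval -0.92 to 0.29). The other Mxi1 probe set, 1450376_at, read 7.40 to 9.05 in QKO, 8.28 to 8.83 in Myc KO, 8.24 to 10.10 in E2f TKO and 8.62 to 9.42 in control arrays, again with no call (limma adjusted p = 0.292 for QKO against control).

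E2f TKO 1 held the highest value of all 18 arrays for Mxd1, Mxi1 and Max and the lowest for Mycl, and QKO 4 held the lowest for Mxd1 and Mxi1. The same arrays were the extremes of 11 measured enterocyte markers, whose mean relative to control was 0.88 in E2f TKO 1 and -0.999 in QKO 4. Over all arrays this mean ran from -0.999 to 0.25 in QKO, -0.06 to 0.14 in Myc KO, -0.53 to 0.88 in E2f TKO and -0.25 to 0.28 in control arrays. All 11 markers were above the array median in every array. E2f TKO 1 and QKO 4 were also the extremes of the 10 stem cell markers, the other way round, at -0.67 and 1.06. E2f TKO 1 was the highest array for the mean of T cell markers as well (1.31). The part of these lists in the Mxd1, Mxi1, Max and Mycl values was not tested.

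**Figure D4:**
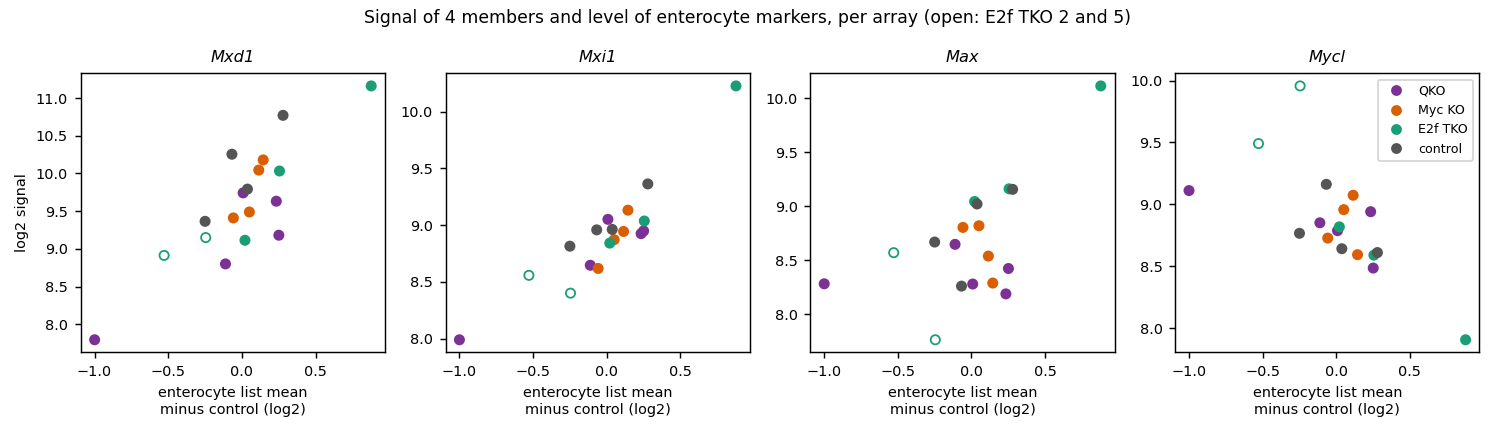
Log2 signal of Mxd1, Mxi1, Max and Mycl in each array against the mean of 11 enterocyte markers minus the control mean (log2); open symbols are E2f TKO 2 and 5. E2f TKO 1 lies at 0.88 on the horizontal axis and QKO 4 at -0.999, where Mxd1 reads 11.16 and 7.79.

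Mxd4, a repressor linked to differentiated cells, was measured by 4 probe sets, which disagreed. The brightest, 1434378_a_at, read 8.19, 7.97, 7.89, 7.19 and 7.53 in QKO, 7.93, 7.78, 7.82 and 7.46 in Myc KO, 8.15, 8.17, 7.70, 7.94 and 8.12 in E2f TKO and 8.06, 7.93, 7.88 and 7.86 in control crypts. These groups overlapped, and the differences from control were -0.18 in QKO (limma adjusted p = 0.432) and -0.19 in Myc KO (adjusted p = 0.534). Probe set 1422575_at, under the array median in all 18 arrays, read 5.70, 5.56, 5.59, 5.27 and 5.38 in QKO and 5.56, 5.41, 5.41 and 5.41 in Myc KO crypts. It read 5.93, 5.86, 5.64, 5.85 and 5.72 in E2f TKO and 5.99, 5.89, 5.81 and 5.75 in control crypts. All QKO and all Myc KO arrays of this probe set were below all control arrays.

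With all probe sets tested, 1422575_at fell by 0.36 ± 0.09 in QKO (limma adjusted p = 0.00576) and by 0.41 ± 0.09 in Myc KO (adjusted p = 0.00896), and both calls held in all 25 settings. Against E2f TKO it fell by 0.30 in QKO (adjusted p = 0.0187), and the adjusted p was 0.0508 without E2f TKO 2 and 5. The other Mxd4 probe sets gave no call. Among 24 member probe sets, 7 were called in QKO against control, 2 higher and 5 lower, from Myc, Mycn, Mxd3 and Mxd4, where 27.1% of all probe sets passed. In Myc KO against control 2 were called, of Myc and Mxd4, where 10.8% passed, and in QKO against E2f TKO 5 were called, of Myc, Mycn and Mxd4, where 18.1% passed. The interaction called 0 of 24 probe sets, where 0.0773% passed.

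Mnt, the broadly expressed antagonist of Myc, read 8.49, 8.35, 8.40, 8.09 and 8.11 in QKO, 8.34, 8.19, 8.32 and 8.23 in Myc KO, 8.42, 8.35, 8.44, 8.25 and 8.21 in E2f TKO and 8.12, 8.18, 8.26 and 8.26 in control crypts (probe set 1418192_at). The groups overlapped, and the 95% interval of the difference from control was -0.09 to 0.26 in QKO, -0.12 to 0.25 in Myc KO and -0.05 to 0.30 in E2f TKO. Mlx, the Max-like partner of the Mondo factors, read 10.31, 10.21, 10.34, 9.94 and 10.16 in QKO, 10.29, 10.53, 10.33 and 10.30 in Myc KO, 10.42, 10.06, 10.16, 10.13 and 10.14 in E2f TKO and 10.36, 10.28, 10.25 and 10.13 in control crypts (probe set 1418437_a_at). Its differences from control had 95% intervals of -0.25 to 0.12 in QKO, -0.09 to 0.31 in Myc KO and -0.26 to 0.11 in E2f TKO. Mnt and Mlx gave no call in any comparison, and these intervals of the brightest probe sets do not reach a change of 0.4 on either side. The dimmer Mnt probe set, 1418193_at, under the array median in all 18 arrays, read 5.79 to 6.13 in QKO, 5.60 to 5.89 in Myc KO, 5.50 to 5.89 in E2f TKO and 5.68 to 5.76 in control arrays. All QKO arrays of it were above all control arrays, and the difference of 0.15 did not pass (limma adjusted p = 0.216). The other Mlx probe set, 1425930_a_at, read 9.93 to 10.38 in QKO, 10.30 to 10.51 in Myc KO, 9.68 to 10.46 in E2f TKO and 10.15 to 10.35 in control arrays. Its 95% intervals were wider, and reached 0.41 in Myc KO and -0.41 in E2f TKO.

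Between QKO and Myc KO, 0 of 10 members passed at the level of genes, where 7.68% of all genes passed, and 0 had arrays that did not overlap, against 13.7% of genes. Mxd3 alone had an unadjusted limma p under 0.05 there (0.00394), and its other probe sets passed as given above. The comparison of QKO with E2f TKO, of QKO with Myc KO and of each with control share arrays, so that their values are set side by side and not counted as separate evidence.

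Known target genes of Myc-Max complexes, in a list chosen with earlier results of these data known, were mostly lower where Myc was deleted. The lists that follow were chosen in the same way. That choice enters the counts, so the shares of all genes beside them do not test the lists. Of 24 measured genes of the target list, 19 fell in QKO and 14 in Myc KO crypts, where 12.6% and 4.72% of all genes fell. In this fit 0 were called in E2f TKO crypts, and none rose. At an unadjusted limma p under 0.05, 2 differed in E2f TKO. The list median was -0.57 in QKO, -0.61 in Myc KO and 0.02 in E2f TKO. The actin 3' signal exceeded the 5' signal, a measure of RNA integrity, by 0.19 to 0.31 in QKO, 0.18 to 0.22 in Myc KO, 0.26 to 0.78 in E2f TKO and 0.31 to 0.44 in control arrays (log2), and its part in these values was not tested. Cad, the enzyme that begins pyrimidine synthesis, averaged 8.04 ± 0.30 in QKO, 8.33 ± 0.07 in Myc KO, 9.31 ± 0.41 in E2f TKO and 9.28 ± 0.17 in control crypts (SD), and fell by 1.25 in QKO (adjusted p = 8.77e-05). Npm1, a nucleolar chaperone of ribosome assembly, averaged 11.95 ± 0.20 in QKO, 11.79 ± 0.23 in Myc KO, 12.83 ± 0.35 in E2f TKO and 12.86 ± 0.15 in control crypts. It fell by 0.90 in QKO (limma adjusted p = 0.000471) and by 1.07 in Myc KO crypts (adjusted p = 0.00127).

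Shmt2, which feeds 1-carbon units from serine into mitochondrial folate, fell by 1.13 in QKO (limma adjusted p = 0.000487) and by 1.21 in Myc KO (adjusted p = 0.00243). Rcl1, a factor of ribosomal RNA processing, fell by 0.80 in QKO (adjusted p = 0.00029) and by 0.92 in Myc KO (adjusted p = 0.00105). Ncl, the nucleolar protein nucleolin, fell by 0.54 in QKO (adjusted p = 0.00351) and by 0.72 in Myc KO (adjusted p = 0.0031). Between QKO and Myc KO 0 of 24 targets passed by limma, where 7.68% of all genes did, with 1 at an unadjusted p under 0.05 and a list median of 0.02. Between QKO and E2f TKO 17 of 24 fell, where 7.95% of all genes fell, and 9 without E2f TKO 2 and 5, where 5.29% fell. In 26 alternative settings between 14 and 20 targets fell in QKO and between 11 and 19 in Myc KO. In QKO 1 target was called higher without QKO 4, and with trended and robust eBayes, array weights, the mean of probe sets or quantile normalization. In E2f TKO 1 was called higher without E2f TKO 1.

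In the Mondo branch of the network, Mlxipl, which encodes ChREBP, the carbohydrate-responsive partner of Mlx, averaged 12.30 ± 0.11 in QKO, 11.57 ± 0.21 in Myc KO, 11.65 ± 0.29 in E2f TKO and 11.45 ± 0.17 in control crypts. Every QKO array was above every array of the other groups. Mlxipl rose by 0.85 ± 0.13 in QKO against control (1.80-fold, limma adjusted p = 0.000198), by 0.73 against Myc KO (adjusted p = 0.00223) and by 0.65 against E2f TKO (adjusted p = 0.0023), while its differences from control in Myc KO (0.12) and E2f TKO (0.20) did not pass. Its interaction was not called. Mlxip encodes MondoA, the other Mondo partner of Mlx, and was named after its values were seen. It averaged 9.02 ± 0.28 in QKO, 9.18 ± 0.14 in Myc KO, 9.45 ± 0.46 in E2f TKO and 9.57 ± 0.20 in control crypts, and fell by 0.55 in QKO (limma adjusted p = 0.0397). That call was lost in 8 of 26 settings: without control 2, 3 or 4 or QKO 1, 3 or 5, with Xist as a covariate and with quantile normalization (limma adjusted p up to 0.120).

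Of 8 genes that Mlx-Mondo complexes are known to bind, 3 rose in QKO, where 14.3% of all genes rose, and 0 fell. In Myc KO crypts 0 rose and 1 fell, and in E2f TKO crypts 0 were called, with 1 at an unadjusted limma p under 0.05 and 2, Arrdc4 and Pklr, called higher without E2f TKO 2 and 5, where 3.35% of all genes were. The list median was 0.37 in QKO, -0.00 in Myc KO and 0.08 in E2f TKO. Pklr, the liver-type pyruvate kinase, averaged 10.94 ± 0.25 in QKO, 9.87 ± 0.20 in Myc KO, 10.24 ± 0.65 in E2f TKO and 9.75 ± 0.19 in control crypts, and rose 2.29-fold in QKO (a log2 difference of 1.20, adjusted p = 0.00157). Txnip, an arrestin-like brake on glucose uptake, averaged 12.02 ± 0.23 in QKO, 11.66 ± 0.13 in Myc KO, 11.38 ± 0.32 in E2f TKO and 11.31 ± 0.24 in control crypts, and rose by 0.71 in QKO (adjusted p = 0.00265). Arrdc4, its paralogue, averaged 8.74 ± 0.12 in QKO, 8.23 ± 0.12 in Myc KO, 8.64 ± 0.25 in E2f TKO and 8.24 ± 0.12 in control crypts. It rose by 0.50 in QKO against control (limma adjusted p = 0.00289). These 3 calls against control and that of Mlxipl held in all 26 settings. Between QKO and E2f TKO 2 of the 8, Txnip and Pklr, were called higher, where 17.0% of all genes were called in either direction. Without E2f TKO 2 and 5 that count was 0, and the list median was 0.05 in place of 0.26. The call of Pklr against E2f TKO was lost in 13 of 26 settings.

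Acaca, an enzyme of fatty acid synthesis, fell by 0.43 in Myc KO crypts (limma adjusted p = 0.029), a call that was lost on leaving out any 1 of control 1, 2 or 4 or of Myc KO 1, 2 or 3. The enterocyte marker means given above overlapped between QKO and control arrays, apart from the low value of QKO 4. The enteroendocrine, tuft and stem lists, given beside Mycn, were higher in every QKO array than in every control array, and their part in the values of Mlxipl and the Mondo targets was not tested.

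Among 22 measured genes for proteins that work with the network on chromatin or pair with its members, 6 fell and 1, Mlxipl, rose in QKO, a share close to the 26.9% of all genes. The genes that fell included Ruvbl2, an ATPase of remodelling complexes that Myc recruits (-0.83, limma adjusted p = 0.00119), Hdac1, a histone deacetylase (-0.41, adjusted p = 0.00611), and Actl6a, an actin-like subunit of those complexes (-0.48, adjusted p = 0.00941; -0.24 and 0.150 with the mean of its probe sets). In Myc KO crypts 1 fell, where 4.72% of all genes did: Mga, a Max partner with a T-box (-0.73, limma adjusted p = 0.0107). With the mean of its probe sets Mga differed by -0.07 (adjusted p = 0.593). Without E2f TKO 1 the list had 6 lower genes in Myc KO, but the share of all genes in that fit was not computed. In E2f TKO 0 of 22 were called, with 2 at an unadjusted p under 0.05.

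Of 14 measured genes for turnover and modification of Myc protein, 8 fell in QKO, where 12.6% of all genes fell, 0 were called in Myc KO and 0 in E2f TKO by limma, with 2 and 1 at an unadjusted p under 0.05. Without E2f TKO 2 and 5, 1 was called lower in E2f TKO, Huwe1 (-0.37, limma adjusted p = 0.0360), where 3.92% of all genes were. The list median was -0.28 in QKO, -0.05 in Myc KO and 0.01 in E2f TKO. When the probe sets of a gene were averaged, 4 fell in QKO, and with quantile normalization 2 were called higher. The calls of Huwe1 and Usp36, which are among the 8, were each lost in 9 of 26 settings. Aurkb and Plk1, kinases of mitosis, fell by 1.00 (adjusted p = 0.0034) and by 0.88 (adjusted p = 0.00553) in QKO. Skp2, the substrate-binding part of a ubiquitin ligase of the cell cycle that also targets Myc, fell by 0.57 (adjusted p = 0.00776). Ppp2r5a, a regulatory subunit of protein phosphatase PP2A, fell by 0.23 (adjusted p = 0.00698), and this call was lost with quantile normalization and with the mean of its probe sets.

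**Figure D5:**
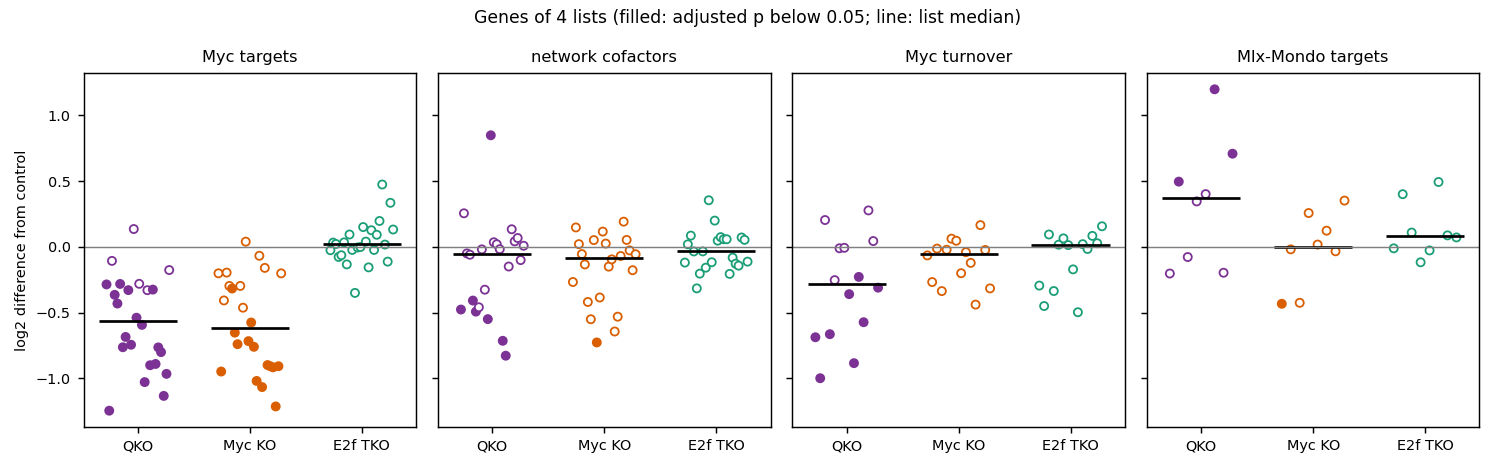
Log2 difference from control of each measured gene of 4 lists in QKO, Myc KO and E2f TKO crypts; filled points passed the test and lines are list medians. Of 24 targets of Myc, 23 lie below 0 in QKO (median -0.57) and 23 in Myc KO (-0.61). The targets of Mlx-Mondo complexes have medians of 0.37 in QKO and -0.00 in Myc KO.

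The genes whose signal followed a member most closely over the 18 arrays were found for Myc, Mxd3 and Mycn, the last pair being the other members with the smallest p over the 3 comparisons with control. These correlations contain the differences between genotypes and are given as descriptions. Ipo4, an importin, followed Myc at a Pearson r of 0.990, then 2010204K13Rik and Tomm20, a receptor of mitochondrial protein import, both at 0.964. Rab19 (-0.927), Cox8a (-0.925) and Ppdpf (-0.920) ran most opposite to Myc. Keap1 (0.836), Mmaa (0.811) and Cep85 (0.808) followed Mxd3, and Ccdc162 (-0.857), Gpr19 (-0.838) and Reep5 (-0.817) ran opposite. Lypla2 (0.918), Rab4b (0.895) and Haghl (0.888) followed Mycn, and Hivep1 (-0.920), Tbccd1 (-0.898) and Sav1 (-0.898) ran opposite.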

How the data were processed

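Crypt RNA labelled with biotin was read on 18 arrays. The deposited values are log2 signals of 45101 probe sets, from 2.29 to 14.81; the log2 scale was inferred from the values, and the method of normalization and of probe summary is not given in the sources used here. They were used as deposited, because array medians differed by 0.126, less than the 0.2 that would have brought in quantile normalization. All 18 columns matched a sample through the titles, and pairs of arrays correlated at 0.973 to 0.996, with 0 identical pairs. The platform annotation gave 1 symbol for 34945 probe sets, several for 932 and none for 9160, and 64 are controls. Without detection calls a low signal cannot be told from background, and the number of arrays limits the precision.

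One limma 3.58.1 model (R 4.3.3; lmFit, contrasts.fit, eBayes) of 4 group means was fitted to all 18193 genes, two-sided, with Benjamini-Hochberg adjustment over them and a threshold of 0.05, and again to every probe set. Tables used the package data.table (version 1.17.8); Python 3.11.15 with matplotlib 3.10.9 drew the figures. The scripts were tested on simulated data. The 6 comparisons were each genotype against control, QKO with the E2f TKO and with the Myc KO group, and the interaction (double loss minus both single losses plus control). The members and lists were chosen with earlier results of these data known. Named are all members, up to 4 genes with the smallest p past the test from each list and comparison with control, and the 3 genes most and least correlated with Myc and with the 2 other members of smallest F-test p. Cell type levels are mean log2 signals of a marker list minus the mean of control arrays. Besides leaving out each of 18 arrays, 10 alternatives were run; the fit without E2f TKO 2 and 5 and the repeats for probe sets and list genes were added after seeing the data. Promoter sequences are those of RefSeq, GRCm38.p6.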

Additional observations from a re-analysis of the deposited data

Results flagged for a closer look

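Of 96 sets of values (24 probe sets in 4 groups), 3 held 1 array far from the others of its group by Dixon's test, which flags about 1 in 20 sets by chance. For Mxd4 probe set 1422575_at, Myc KO 1 was the highest of its group at 5.56, and the nearest array read 5.41. For Mnt probe set 1418193_at, QKO 3 was the highest of its group at 6.13, and the nearest read 5.82. For Mlx probe set 1418437_a_at, E2f TKO 1 was the highest of its group at 10.42, and the nearest read 10.16. The probe sets of Mxd4 and Mnt lay under the array median in all 18 arrays.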

How the results depend on the processing

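No member changed the direction of a called difference in the alternatives run; of the values of single members under them, 1698 stayed on the same side of the threshold, 24 came to pass it and 12 ceased to. In E2f TKO against control, 1 member was called in place of 0, Mxd3, when probe sets were averaged per gene and with every probe set tested. In Myc KO against control, every probe set called 2, adding Mxd4. In QKO against control, 4 were called with every probe set (adding Mycn and Mxd4) and 1 with only genes above the median level, where Mxd3 was not among the 9 members tested. Mycn was also called in that comparison with the mean of probe sets (0.51, limma adjusted p = 0.000297), with only the groups compared and with array weights. In QKO against E2f TKO, 1 remained called, Myc, with quantile normalization and with only the groups compared. In QKO against Myc KO, 2 were called with the mean of probe sets (Mycn and Mxd3) and 1, Mxd3, with quantile normalization, every probe set, trended and robust eBayes, or array weights. Leaving out 1 array at a time gave 0 to 0 calls in E2f TKO against control and 1 to 1 in Myc KO against control. It gave 1 to 3 in QKO against control, 1 to 2 in QKO against E2f TKO, 0 to 1 in QKO against Myc KO and 0 to 0 for the interaction. Replicate numbers did not meet the rule for pairing, every pair above 0.1: of same-numbered pairs 13 of 25 did (range -0.156 to 0.352, median 0.148), of different-numbered pairs 27 of 96 (median -0.043), and 8 of 18 arrays correlated best with their own number. With the replicate number as a block, 0, 1, 3, 2, 0 and 0 members were called in the comparisons in the same order, and the member added in QKO against control was Mxd1 (-0.89, limma adjusted p = 0.0321). Causes of these shifts were not tested, except that fewer genes or arrays entered where stated. Signals near the array medians, as in the dimmer probe sets, limit how far their differences can be read.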
